A study of Mus musculus with 2 samples.

Results

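Endothelial cells, the cells that line blood and lymph vessels, were described here from 2 single-cell RNA-seq libraries of cells sorted for tdTomato from bone and muscle. Members were chosen by their transcripts. A cell had to carry at least 3 unique molecular identifiers (UMIs, each counting 1 captured transcript) of *Cdh5*, *Kdr*, *Flt1* and *Cldn5* together and no UMI of *Ptprc*, the gene of the leukocyte antigen CD45, or of *Pdgfra*, which marks fibroblasts. Cells with fewer than 500 detected genes, or with over 10% of UMIs from mitochondrial genes, were left out. Of 4502 cells that passed the limits on genes and mitochondrial UMIs, 128 met the rule, 29 of 1207 in the intact library and 99 of 3295 in the callus library. These are 2.40% (95% Clopper-Pearson interval 1.61 to 3.43%) and 3.00% (2.45 to 3.65%) of the filtered cells, so that the shares could not be told apart by counting error alone.

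The mice carried *Clec3b.creERT2*, a tamoxifen-inducible Cre driven from *Clec3b*, a gene of fibroblasts, and the reporter *Ai14.R26.tdTomato*, which marks a recombined cell and its descendants. Tamoxifen was given 2 weeks before a stabilized fracture of the right femur at 6 weeks of age, and tissue was taken 3 weeks after surgery. The intact group holds intact femoral diaphyses with the surrounding muscle, and the callus group holds fracture calluses. Tissue of 3 littermates was pooled within each group and gave 1 library, so there is no replicate and no test between them, and all intervals below cover counting error only at the 95% level. *Clec3b* itself was not found in the 29 intact members and gave 6 UMIs, all in 1 cell, in the 99 callus members. Reads of the reporter itself were not analysed here, and presence in the sort does not show that a member was recombined. The study set endothelial cells aside as unlabelled cells carried along by the sorting.

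The labels describe the mice as male, but *Xist*, which is transcribed from an inactivated X, gave UMIs in 18 of the 29 intact (62.1%) and 91 of the 99 callus cells (91.9%), and the 4 Y-linked genes examined held 0 UMIs in the members of both libraries. Only 1 barcode was shared between the libraries, and it was not among the members. The intact members were the shallower. They held 72859 UMIs in all, with a median of 2402 per cell (718 to 4807) and 1344 genes, against 466270 UMIs, a median of 4433 (690 to 12317) and 2038 genes in callus members. Median mitochondrial shares were 1.43% and 2.38%.

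As background, all endothelial cells share adhesion and receptor genes such as VE-cadherin (*Cdh5*) and the VEGF receptors *Kdr* and *Flt1*, and differ by vessel. Capillaries of muscle and fat take up fatty acids from lipoproteins through the lipase anchor *Gpihbp1*, the scavenger receptor *Cd36* and the fatty acid carrier *Fabp4*. Arterial cells use Notch signals and the connexins *Gja4* and *Gja5*, while the sinusoids of the bone marrow are wide, leaky vessels that clear waste through receptors such as *Stab2* and *Mrc1*. In growing bone, vessels also supply signals to bone-forming cells and follow VEGF into the repair tissue.

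The label was checked with endothelial genes that the rule did not use. Of 18 such genes, all 18 were detected in both libraries. *Pecam1*, which encodes the junction protein CD31, gave UMIs in 28 of the 29 intact and 94 of the 99 callus cells. *Egfl7*, an extracellular matrix protein secreted by endothelium, was carried by 29 and 95 members, and the phosphatase gene *Ptprb* by 27 and 96. The summed level of the 18 genes was 10692 CPM (UMIs of a gene per 1000000 UMIs of all members of a library) in intact and 10824 CPM in callus members. In CD45 cells, those with *Ptprc* and none of the rule's endothelial genes or *Pdgfra* (637 intact and 2191 callus cells), it was 98.0 and 139 CPM. In *Pdgfra* cells (at least 2 UMIs of *Pdgfra* and none of *Ptprc* or the endothelial genes) it was higher than in CD45 cells, at 2087 and 1117 CPM, and below the members in both libraries. The name endothelial therefore holds for both libraries by genes outside the rule.

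The threshold lay in a gap. No cell of either library that met the other limits had exactly 2 UMIs over the 4 genes. Just outside it, 3 intact and 6 callus cells had 1 UMI, of which 0 and 1 carried *Pecam1* and 0 and 2 carried *Fabp4*. Just inside, 1 intact and 2 callus cells had 3 UMIs, of which 1 and 1 carried *Pecam1* and 1 and 0 carried *Fabp4*. Cells with endothelial UMIs were also left out for a UMI of *Ptprc* (2 intact and 20 callus cells), of *Pdgfra* (4 and 6) or of both (0 and 2). Among members, the median number of UMIs over the 4 genes was 18 in intact and 21 in callus cells, and by gene *Cdh5* was at 2855 CPM in intact and 1960.2 CPM in callus members, *Kdr* at 1619.6 and 1109, *Flt1* at 1784 and 1298, and *Cldn5*, a tight junction claudin, at 659 and 860.0 CPM. These 4 chose the members and support nothing further.

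Genes that set the members apart from all other filtered cells included several genes of capillaries. These values describe the selected cells, since the rule selected on the same cells. The 15 genes with the highest ratio to the other cells in the library where that ratio was lower included the endothelial transcription factors *Sox17* and *Sox18*, the muscle capillary factor *Tcf15*, the lipid genes *Gpihbp1* and *Fabp4*, the glycerol channel *Aqp7* and the metalloproteinase inhibitor *Timp4*. *Fabp4* was the most abundant of them, at 23648 CPM in intact and 14166 CPM in callus members, and was carried by all 29 intact and 94 of 99 callus members. In the other filtered cells it was at 16.0 and 33.0 CPM. *Podxl*, *Esam* and *Ptprb*, surface and junction proteins of endothelium, and *Ushbp1*, *Ablim3*, *C1qtnf9*, *Cyyr1* and *Gm12002* made up the rest. Over the 15 genes the lower of the ratios, with *Sox17* at the floor of 3 counts in the other intact cells, ran from 403 to 1112.

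The main comparison set the summed UMIs of callus members against those of intact members. Among 4779 genes with at least 20 UMIs over all members, 612 (12.8%) were at least 2-fold higher in callus members and 271 (5.67%) at least 2-fold lower, and the median log2 ratio was 0.07. These are descriptions of 2 libraries, and the split between higher and lower leaned on depth. Because callus members held most of the UMIs, a gene could reach 20 UMIs through the callus alone, and with callus UMIs thinned at random to the intact total 98 of 1425 genes (6.88%) were higher and 114 (8%) lower. Over the 626 genes with at least 20 UMIs in each library the median log2 ratio was -0.14, and centred on it 762 genes were higher and 192 lower. Larger lists are therefore given below with their counts at equal totals, to be set beside 6.88% and 8%, and single genes with their counting intervals. Of the listed genes at least 2-fold higher in callus members, only *Sparc* had 20 UMIs in the intact library, and the others were counted through the callus, where they are high, so that the shares of higher genes and the medians describe the counted genes and support nothing about a list.

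**Figure D1:**
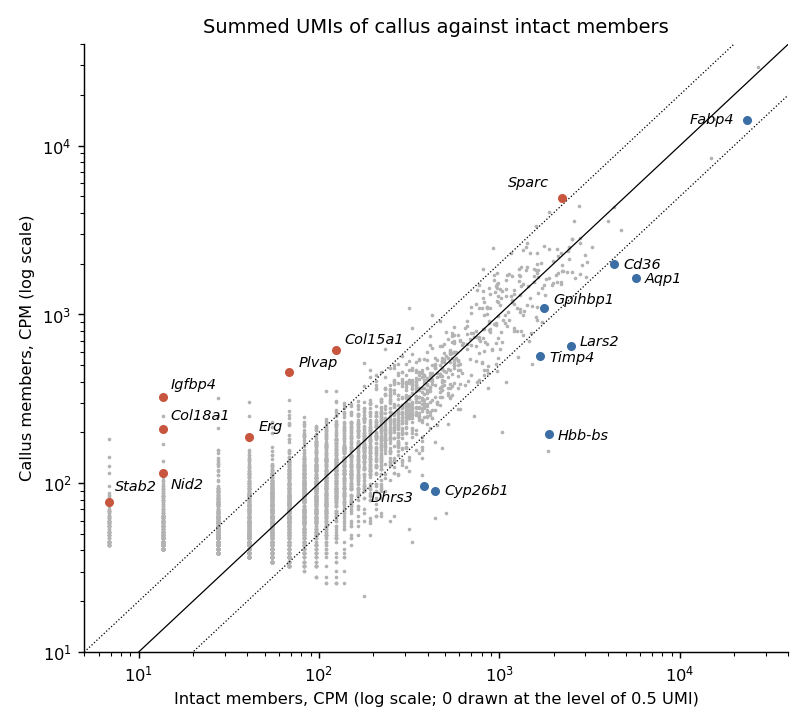
CPM of 4779 genes in the summed UMIs of 99 callus members (vertical, log scale) against 29 intact members (horizontal, log scale). The solid line marks equal levels and the dotted lines 2-fold, and 17 genes named in the text are colored red where higher and blue where lower in callus, with *Fabp4*, *Cd36*, *Aqp1* and *Timp4* below the solid line and *Sparc*, *Col15a1* and *Plvap* above it.

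Capillary genes of muscle and fat were lower in callus members as a list. Of 15 genes, all counted, 12 had a ratio under 1 and 4 were at least 2-fold lower (26.7%, against 5.67% of all genes), 1 was at least 2-fold higher, and the median log2 ratio was -0.68 (medians of the lower and upper counting bounds -0.98 and -0.17). The 4 lower genes had at least 20 UMIs in each library, and at equal totals 6 of 14 genes were lower and 0 higher. Together the 15 genes held 47379 CPM of intact and 28404 CPM of callus members. Furthest on the lower side was the water channel *Aqp1*. It was at 5723 CPM in intact and 1649 CPM in callus members and was 3.47-fold lower in callus (counting interval 3.07 to 3.91). The number of *Aqp1* UMIs per cell had a median of 14 (0 to 44) in intact and 5 (0 to 40) in callus members, although callus cells were the deeper, and the ranges overlapped.

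*Timp4* stood at 1688 CPM in intact and 566 CPM in callus members, 2.98-fold lower in callus (counting interval 2.39 to 3.71). *Cd36*, the fatty acid receptor, was at 4337 and 1990.3 CPM, a difference of 2.18-fold (1.91 to 2.48). *Car4*, a carbonic anhydrase of capillary walls, was at 275 and 112 CPM, lower by 2.46-fold (1.39 to 4.19). Each of these 4 genes was still carried by many callus members, from 25 to 85 of 99. *Fabp4* was lower by 1.67-fold (1.58 to 1.76) and *Gpihbp1* by 1.62-fold (1.32 to 1.97). The transcription factor genes of these capillaries, *Tcf15* and *Meox2*, were lower by 1.79-fold (1.41 to 2.24) and 1.60-fold (0.978 to 2.52), and the interval of *Meox2* included equality. *Lpl*, the lipase that *Gpihbp1* holds at the vessel wall, was at 522 CPM in intact and 367 CPM in callus members. *Btnl9* was the exception, with 3 UMIs in intact and 84 in callus members, 4.38-fold higher in callus (counting interval 1.45 to 21.6).

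*Gpihbp1*, which was not in the rule, was carried by 23 of 29 intact members (79.3%) and 80 of 99 callus members (80.8%), at 1771 CPM in intact and 1094 CPM in callus members. Because depth differed, each cell was thinned to 1000 UMIs, which left out 3 intact and 4 callus members. After thinning 20 of 26 (76.9%, 56.4 to 91.0%) intact and 52 of 95 (54.7%, 44.2 to 65.0%) callus members carried it, with Clopper-Pearson intervals that overlapped. A single draw moved these shares, and their mean over all possible draws was 69.9% and 56.4%. No thinned CD45 cell carried *Gpihbp1*, of 634 intact and 2188 callus cells, and the median CD45 cell had 4817 and 7561 UMIs before thinning. At 2 times that depth the shares were 76.5% and 71.4%. *Gpihbp1* was thus carried by most members of both libraries. Overlap of the 2 intervals of its share is no test of a difference, and none was run. The interval of its level, which covers counting error only, excluded equality.

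A wider gap was seen for *Timp4*, carried after thinning by 19 of 26 (73.1%, 52.2 to 88.4%) intact and 24 of 95 (25.3%, 16.9 to 35.2%) callus members, with intervals that did not overlap. *Aqp1* UMIs were present in 21 of 26 (80.8%, 60.6 to 93.4%) and 53 of 95 (55.8%, 45.2 to 66.0%). *Fabp4* was near saturation, at 26 of 26 (100%, 86.8 to 100%) and 88 of 95 (92.6%, 85.4 to 97.0%), so that its share could not show a difference.

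**Figure D2:**
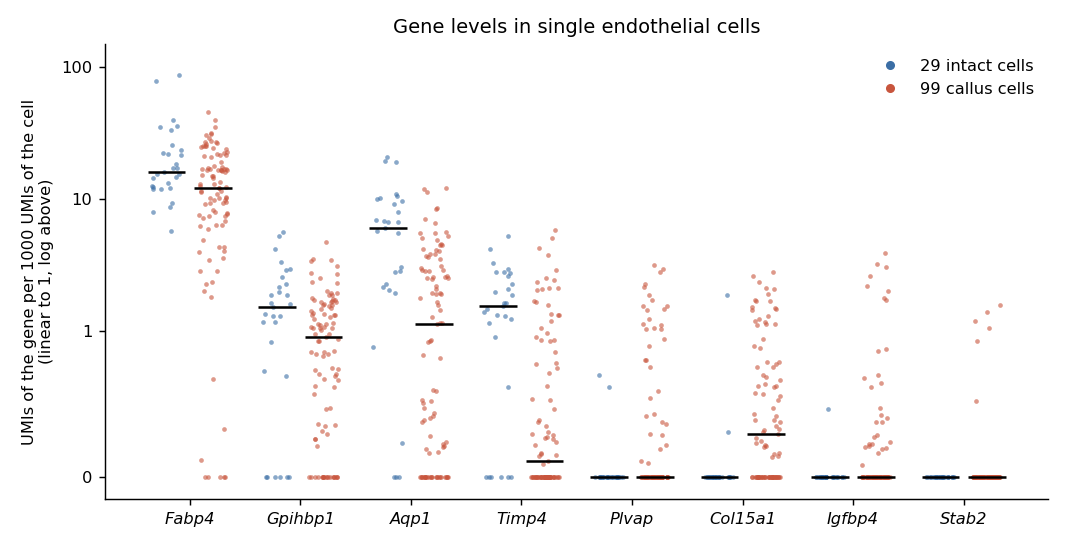
UMIs of 8 genes per 1000 UMIs of the cell (vertical, linear up to 1 and log above) in each of 29 intact (blue) and 99 callus members (red), with black bars at the medians over cells. *Aqp1* and *Timp4* have lower medians in callus members, while *Plvap*, *Col15a1* and *Igfbp4* were carried by 34, 60 and 30 callus members but by 2, 2 and 1 intact members, and *Stab2* by callus members alone.

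Lipid handling genes overlapped with the capillary list. Of 24 fatty acid and lipoprotein genes, 15 were counted, 11 had a ratio under 1, 2 were at least 2-fold lower and 1 higher, with a median log2 ratio of -0.51 (medians of the lower and upper counting bounds -0.98 and 0.03). At equal totals 4 of 12 were lower and 0 higher. This list shares *Gpihbp1*, *Lpl*, *Fabp4*, *Fabp5*, *Cd36*, *Meox2* and *Tcf15* with the capillary list and is not independent of it. Of the 8 counted genes outside the overlap 5 had a ratio under 1 and 3 above, with 1 at least 2-fold lower and 1 higher. Among them, *Cav1* and *Cav2*, the coat proteins of caveolae, were at 2512 CPM in intact and 1782 CPM in callus members and at 974 CPM in intact and 461 CPM in callus members, and *Cav2* was 2.11-fold lower in callus (counting interval 1.59 to 2.78). *Pparg*, the receptor that induces *Fabp4* and *Cd36*, was at 151 and 96.5 CPM, and its interval of 1.56-fold (0.730 to 3.07) included equality. *Acsl5*, an acyl-CoA synthetase and the higher gene, had 1 UMI in intact and 30 in callus members, and its ratio of 4.69-fold (0.779 to 191) also had an interval that included equality.

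Several arterial genes had few UMIs in intact members. Of 16 genes, 14 were counted, 11 had a ratio above 1, 5 (35.7%, against 12.8%) were at least 2-fold higher and 0 lower, and the median log2 ratio was 0.67 (medians of the lower and upper counting bounds -0.34 and 2.49). All 5 had under 20 UMIs in the intact library, and at equal totals 1 of 7 counted genes was higher and 0 lower. The semaphorin *Sema3g* had 6 UMIs in 5 intact members and 107 in 25 callus members, 2.79-fold higher in callus (counting interval 1.24 to 7.76). *Fbln5*, an elastic fiber protein, had 1 and 63 UMIs, and *Hey1*, a Notch target, 1 and 43. The connexin gene *Gja5*, a defining arterial marker, had no intact UMI, where 3 counts would be 41.2 CPM, and was at 42.9 CPM in callus members, in 7 cells. A difference in *Gja5* was not detectable at this depth. *Cxcl12*, the most abundant arterial gene on the list, which capillaries also express, was at 2196 CPM in intact and 2303 CPM in callus members, and *Dll4*, the Notch ligand of arterial and tip cells, at 192 and 124 CPM.

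The arterial genes came together in few cells. Counting *Gja5*, *Gja4*, *Sema3g* and *Fbln5*, which were picked after their values were seen, 61 of 99 callus members carried 0 of the 4 genes, 22 carried 1, 9 carried 2, 3 carried 3 and 4 carried all 4. In the intact library 23, 4 and 2 of 29 members carried 0, 1 and 2 of them, and 0 carried more. Of the 7 callus members with *Gja5*, 5 carried *Gja4*, 4 *Sema3g* and 4 *Fbln5*, against 10, 21 and 14 of the other 92. Of the 16 callus members with 2 or more of the genes, 7 also carried *Gpihbp1*. After thinning, *Sema3g* was carried by 2 of 26 (7.69%, 0.946 to 25.1%) intact and 12 of 95 (12.6%, 6.70 to 21.0%) callus members, and these intervals overlapped widely.

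Defining venous and lymphatic genes were scarce. *Ackr1* and *Sele*, which define venules, had 0 UMIs in the members of both libraries, and *Selp* had 0 and 10. Of 12 venous genes 5 were counted, of which *Plvap*, described below, was 6.63-fold higher in callus (counting interval 2.79 to 20.6), with a median log2 ratio of 0.54 (medians of the lower and upper counting bounds -0.95 and 2.91), and among them *Ephb4*, the venous ephrin receptor, was at 137 and 139 CPM and *Vwf*, von Willebrand factor, at 41.2 and 68.6 CPM. *Nr2f2*, the venous transcription factor, was at 54.9 and 51.5 CPM. For these 3 genes, the intervals of the ratios between the libraries included equality. At equal totals 1 of 2 counted venous genes was higher and 0 lower. For lymphatic vessels, *Lyve1* had 0 UMIs in both, *Prox1* 0 and 2, and only *Flt4*, which sinusoids also express, was counted.

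Some sinusoidal genes were found in a handful of callus cells and others more widely, with *Stab1* in 3 intact and 33 callus members and *Selenop* in 18 and 71. *Stab2*, the hyaluronan and waste receptor of sinusoids, had 0 UMIs in 29 intact members, where 3 counts would be 41.2 CPM, and 36 UMIs in 6 of 99 callus members, or 77.2 CPM. After thinning 0 of 26 intact members had a *Stab2* UMI, with an upper Clopper-Pearson limit of 13.2% on the share of such cells (11.5% by the floor of 3 counts), as against 5 of 95 (5.26%, 1.73 to 11.9%) callus members, and a difference between the libraries was not detectable at this depth. In thinned CD45 cells *Stab2* was carried by 0.315% and 0.0457%. As a list, 16 sinusoidal genes held 1469 and 2076 CPM, 8 were counted, 1 was at least 2-fold higher (12.5%, near the 12.8% of all genes) and 0 lower, with a median log2 ratio of 0.36 (medians of the lower and upper counting bounds -0.26 and 1.70). Without the 6 callus cells the median was -0.03. At equal totals 0 of 4 counted sinusoidal genes were higher or lower. *Stab1*, the relative of *Stab2* with the 2-fold difference, had 3 UMIs in intact and 62 in callus members, 3.23-fold higher in callus (counting interval 1.05 to 16.1). *Dnase1l3* had 0 and 1 UMI, and *Clec4g* none.

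The 6 *Stab2* cells shared other sinusoidal genes that had not been used to find them. *Stab2* ranged from 2 to 12 UMIs over the 6 cells, with a median of 5. *Mrc1*, the mannose receptor, was carried by all 6 (1 to 6 UMIs) and by 0 of the other 93 callus members. *Selenop*, the plasma selenium carrier, was at 3879.6 CPM in the 6 cells and 416 CPM in the other callus members, *Il6st*, the shared receptor chain of the IL-6 family, at 673 and 165 CPM, and *Flt4* at 481 and 69.0 CPM. *Vcam1* was at 449 and 6.90 CPM, and *F8*, coagulation factor VIII, at 513 and 4.60 CPM. *Lyve1* was at 0 in all 6 cells.

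The same 6 cells were high in other genes. *Igfbp4*, an IGF-binding protein, ranged from 5 to 30 UMIs in them and was at 2693 CPM, against 156 CPM in the other 93. *Plvap*, which forms the diaphragms of fenestrated capillaries, was carried by all 6 at 1379 CPM, against 388 CPM in 28 of the other members. Genes of muscle capillaries split. *Aqp1* had 1 UMI, *Timp4*, *Tcf15* and *Car4* none, and the surface antigen *Ly6c1* 96.2 against 1908 CPM, yet *Gpihbp1* was carried by all 6 cells (2 to 10 UMIs) at 1122 against 1092 CPM and *Fabp4* was at 10645 against 14418 CPM. *Kitl*, the stem cell factor gene, had 1 UMI in the 6 cells, or 32.1 CPM, against 894. Genes of other cell types were also high in these cells. *Abcc9* and *Kcnj8*, subunits of a potassium channel of pericytes and smooth muscle, had 20 of 22 and 14 of 18 callus UMIs in the 6 cells, while *Rgs5*, another pericyte gene, had 0 there. The pericyte and smooth muscle list was at 1122 CPM in the 6 cells and at 156 CPM in the other 93. All callus UMIs of *Adipoq* (7), *Ibsp* (10) and *Igfbp5* (16), which marrow stromal or bone cells also express, lay in 2 of the 6. The cell with the most *Igfbp4* (30 UMIs) had the most pericyte UMIs, 13, and 7 fibroblast UMIs, and without it *Igfbp4* was at 2300.1 CPM in the other 5. *Igfbp4* was also at 764 and 1035 CPM in intact and callus *Pdgfra* cells. The part of such content in these levels was not tested.

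**Figure D3:**
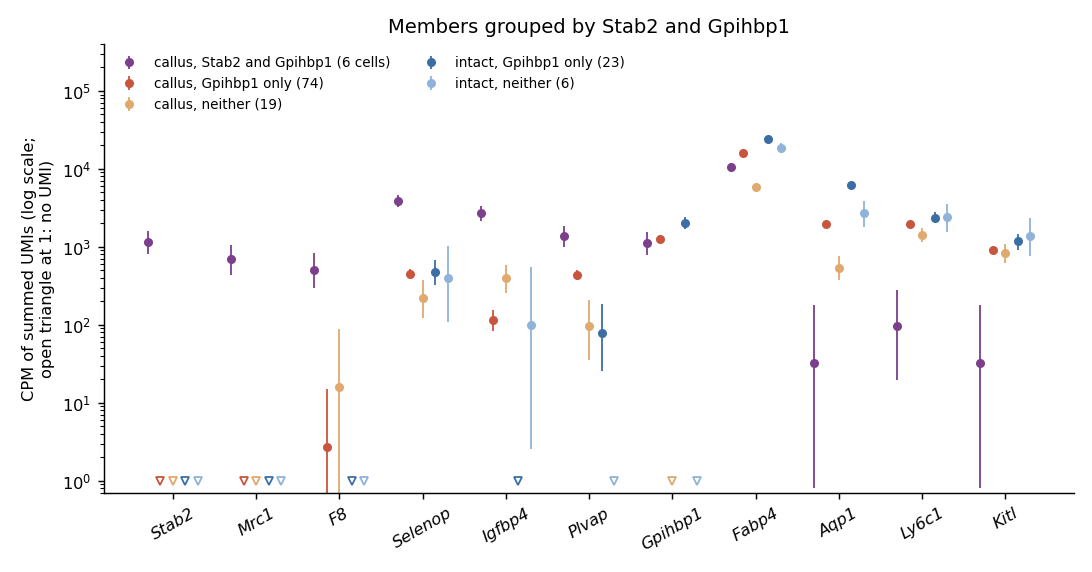
CPM of 11 genes (log scale) in members grouped by whether a cell carried *Stab2* and *Gpihbp1*, with exact Poisson intervals as bars and open triangles where a group held no UMI. The 6 callus cells with both genes hold *Mrc1* at 705 CPM, where the other 4 groups have none, and *Aqp1*, *Ly6c1* and *Kitl* at 32.1, 96.2 and 32.1 CPM, while their *Gpihbp1* level of 1122 CPM is close to that of callus cells with *Gpihbp1* alone.

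Outside the 6 cells, 74 callus members carried *Gpihbp1* alone and 19 neither gene, and 23 and 6 intact members. The callus cells with neither had a median of 2644 UMIs and held more of the arterial genes, with *Sema3g* at 1008 against 118 CPM in cells with *Gpihbp1* alone, *Gja5* at 256 against 10.7 CPM and *Fbln5* at 656 against 34.9 CPM. Elastin (*Eln*), which is not on the arterial list, was at 784 against 83.2 CPM. Few cells set these levels. In the cells with neither, 36 of the 49 *Eln* UMIs lay in 1 cell, which also held 582 UMIs of the fibroblast list and without which *Eln* was at 235 CPM, and 14 of the 16 *Gja5* UMIs lay in 2 cells, without which *Gja5* was at 37.0 CPM. Without their 2 highest cells *Sema3g* was at 603 and *Fbln5* at 481 CPM. The cells with neither held less *Rgcc*, 272 against 1286 CPM, and less *Fabp4*, 5839 against 15858 CPM. Within cells that carried *Gpihbp1* alone, the comparison of libraries kept its direction for 4 capillary genes. *Aqp1* was 3.15-fold, *Timp4* 2.59-fold, *Cd36* 2.01-fold and *Fabp4* 1.54-fold lower in callus cells of that kind.

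Several genes of the vascular matrix had more UMIs in callus members. Of 15 vascular basement membrane genes, all counted, 13 had a ratio above 1, 6 (40%, against 12.8%) were at least 2-fold higher and 0 lower, and the median log2 ratio was 0.51 (medians of the lower and upper counting bounds -0.16 and 1.38). Of the 6, 5 had under 20 UMIs in the intact library, and at equal totals 2 of 11 counted genes were higher and 0 lower. The list was not particular to the members. Its summed level was 11392 CPM in intact and 16580.5 CPM in callus members, and 11112 and 26079.8 CPM in *Pdgfra* cells, where it was also higher in the callus. *Col15a1*, a collagen of the outer basement membrane zone, had 9 UMIs in 2 intact and 289 UMIs in 60 callus members, 5.02-fold higher in callus (counting interval 2.61 to 11.1). After thinning 0 of 26 intact members had a UMI of it, with an upper Clopper-Pearson limit of 13.2%, against 34 of 95 (35.8%, 26.2 to 46.3%) callus members. Its relative *Col18a1*, the source of endostatin, had 1 and 98 UMIs, and the nidogens *Nid1* and *Nid2*, which link laminin to collagen IV, were higher by 2.17-fold (1.15 to 4.63) and 8.44-fold (1.45 to 339). *Sparc*, a collagen-binding glycoprotein, was abundant in both, at 2237 CPM in intact and 4919.9 CPM in callus members, 2.20-fold higher in callus (counting interval 1.88 to 2.59). The main chains of collagen IV differed less, with *Col4a1* higher by 1.38-fold (1.19 to 1.62) and *Col4a2* by 1.06-fold (0.894 to 1.26), and the laminin genes *Lamb2* and *Lama5* were at 261 and 137 and at 137 and 83.6 CPM.

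Of 18 tip cell and angiogenic genes 13 were counted, 11 with a ratio above 1 and 4 (30.8%) at least 2-fold higher, with a median log2 ratio of 0.39 (medians of the lower and upper counting bounds -0.39 and 1.10). The 4 had under 20 UMIs in the intact library, and at equal totals 1 of 9 counted genes was higher and 0 lower. This list shares *Nid2*, *Lamb1*, *Col4a1* and *Col4a2* with the basement membrane list and *Dll4* with the arterial list. Its defining tip genes were rare. *Apln*, the apelin ligand, had 0 UMIs in intact and 25 in 12 callus members, *Angpt2* 0 and 17 in 11, and *Esm1* 4 in 1 and 13 in 5. *Mcam* (CD146) was carried by 5 and 45 members and was 2.42-fold higher in callus (counting interval 1.07 to 6.77). *Aplnr*, the apelin receptor, was at 302 CPM in intact and 397 CPM in callus members, a ratio of 1.31-fold (0.842 to 2.15), whose interval included equality.

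*Plvap*, the gene of fenestrated vessels, had 5 UMIs in 2 intact and 212 in 34 callus members. Without the 6 *Stab2* cells it was 5.66-fold higher. After thinning it was carried by 1 of 26 (3.85%, 0.0973 to 19.6%) and 24 of 95 (25.3%, 16.9 to 35.2%). Within the callus, *Plvap* and *Timp4* were carried mostly by different cells. Of 99 members, 40 carried *Timp4* alone, 23 *Plvap* alone, 11 both and 25 neither, so that *Plvap* was in 21.6% of cells with *Timp4* and in 47.9% of those without it, although cells with *Plvap* were the deeper (a median of 6039 UMIs). This pair was chosen after its values were seen and is a description of cells that share a library.

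Cells with *Timp4* alone and with *Plvap* alone differed in other capillary genes. *Aqp1* was at 2956 CPM in the 40 cells with *Timp4* and 784 CPM in the 23 with *Plvap*, *Cd36* at 2772 and 945, *Tcf15* at 1150.5 and 407, and *Fabp4* at 19392 and 9596 CPM. *Car4* was at 208 CPM in the first and had no UMI in the second. *Igfbp4* ran the other way, 42.8 against 822 CPM, as did *Aplnr* (269 against 522) and *Col15a1* (422 against 829.7). *Gpihbp1* lay closer, at 1303 and 1083 CPM. The 6 *Stab2* cells are all among those with *Plvap* alone, and in the other 17 *Igfbp4* was at 232, *Aqp1* at 1020.5, *Tcf15* at 535.5 and *Col15a1* at 1051 CPM.

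Receptors for vessel growth factors had ratios on both sides of 1. Of 19 VEGF, angiopoietin and apelin receptor genes and their relatives, 18 were counted, 7 with a ratio above 1 and 11 below. *Kdr* and *Flt1*, which chose the members, are among those below, at log2 ratios of -0.55 and -0.46. In the list 1 gene was at least 2-fold higher and 1 lower, with a median log2 ratio of -0.28 (medians of the lower and upper counting bounds -0.81 and 0.47). The shares past 2-fold were 5.56% in each direction, beside 12.8% higher and 5.67% lower of all genes. At equal totals 0 of 14 were higher and 1 lower, beside 6.88% and 8% of all genes. *S1pr1*, the sphingosine-1-phosphate receptor that stabilizes vessels, was the lower one, at 1455 CPM in intact and 699 CPM in callus members, 2.08-fold lower in callus (counting interval 1.66 to 2.6). *Cxcr4*, the receptor of *Cxcl12*, was the higher one, with 1 and 23 UMIs, and its ratio of 3.59-fold (0.584 to 148) had an interval that included equality. The angiopoietin receptor *Tek* was at 453 and 296 CPM and the VEGF coreceptor *Nrp1* at 1016 and 791 CPM.

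Notch genes were uneven. Of 9 counted genes 4 (44.4%, against 12.8% of all genes) were at least 2-fold higher and 1 lower. All 4 higher genes had under 20 UMIs in the intact library, and at equal totals 0 of 4 counted genes were higher or lower. *Jag1*, *Hey1* and *Dll4* are also on the arterial list. The ligands *Jag1* and *Jag2* had 3 and 48 and 5 and 73 UMIs and the receptor *Notch4* 5 and 64. *Hes1*, a Notch target that other signals also induce, was at 865 CPM in intact and 369 CPM in callus members, 2.34-fold lower in callus (counting interval 1.73 to 3.15), in contrast to *Hey1*. Of endothelial transcription factors 20 of 21 counted genes were within 2-fold, and at equal totals 1 of 17 was higher and 3 lower. *Erg*, the ETS factor that maintains endothelial identity, was the exception, with 3 UMIs in 3 and 88 in 48 members, 4.58-fold higher in callus (counting interval 1.52 to 22.7), while its close relative *Fli1* was at 769 CPM in intact and 407 CPM in callus members, 1.89-fold lower in callus (counting interval 1.37 to 2.55). *Klf2*, which laminar flow induces, was at 2182 and 1518 CPM.

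Among 16 counted junction and surface adhesion genes, 3 were at least 2-fold higher and 1 lower, as against 1 and 1 of 13 at equal totals. The list median log2 ratio was 0.18 (medians of the lower and upper counting bounds -0.45 and 0.71). The counted genes include *Cdh5* and *Cldn5*, which chose the members, at log2 ratios of -0.54 and 0.38. *Clec14a*, an endothelial lectin, had 6 and 104 UMIs, 2.71-fold higher in callus (counting interval 1.20 to 7.55), and *Jam2* and *Jam3*, junctional adhesion molecules, had intact over callus ratios of 1.89-fold (1.43 to 2.48) and 2.22-fold (0.913 to 4.88), of which the interval of *Jam3* includes equality. Coagulation and vessel tone genes included *Thbd*, thrombomodulin, the anticoagulant cofactor on endothelium, which had 6 and 104 UMIs, the same as *Clec14a*, in 5 and 41 members. It was the only one of 12 counted genes of that list past 2-fold, and at equal totals 1 of 4 was higher and 0 lower. The nitric oxide synthase *Nos3* was at 109.8 and 127 CPM.

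Factors that endothelium secretes to neighboring cells were uneven. Of 26 listed, 11 were counted, 2 at least 2-fold higher and 1 lower, and at equal totals 0 of 7 were higher and 1 lower. *Cxcl12* and *Kitl*, the marrow niche factors, were both expressed, *Kitl* at 1208 CPM in intact and 836 CPM in callus members, 1.44-fold lower in callus (counting interval 1.13 to 1.82). *Bmp6* had 18 UMIs in 12 intact and 28 in 20 callus members, 4.11-fold lower in callus (counting interval 2.14 to 7.70). The higher genes were *Igfbp4* and the ephrin *Efna1*, which had 7 and 90 UMIs, 2.01-fold higher in callus (counting interval 0.936 to 5.14). *Igfbp7* was the most abundant factor and level, at 4296 CPM in intact and 4356 CPM in callus members. *Hgf*, *Rspo3* and *Ccl2* had 0 UMIs in the members of both libraries, and *Bmp2* 0 and 12.

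Interferon-induced genes were uneven, with 14 of 19 counted genes under a ratio of 1, 4 at least 2-fold lower (21.1%, against 5.67%) and 2 higher, and a median log2 ratio of -0.32 (medians of the lower and upper counting bounds -0.80 and 0.46). Of the 4 lower genes, 3 had under 20 UMIs in the callus library, and at equal totals 1 of 10 counted genes was lower and 0 higher. *Isg15* was at 316 CPM in intact and 118 CPM in callus members, 2.68-fold lower in callus (counting interval 1.57 to 4.43), in 6 and 29 members, and *Irf7* was lower by 3.60-fold (1.4 to 8.65). In intact and callus CD45 cells *Isg15* was at 49.6 and 21.1 CPM and *Irf7* at 32.6 and 18.6 CPM. The other lower genes, *Ifit3* and *Ifit2*, were there at 6.42 and 4.34 CPM and at 3.46 and 9.28 CPM. The higher ones were *Stat2*, with 1 and 34 UMIs, and *Oasl2*, with 2 and 29. Of 9 counted antigen presentation genes, 0 were at least 2-fold higher (against 12.8% of all genes) and 1 lower (11.1%, against 5.67%). At equal totals 0 of 7 were higher or lower. The class I genes *H2-K1* and *H2-D1* were at 1359 and 1508 and at 1606 and 1977 CPM. Class II genes were near 0, with *H2-Aa* at 0 and 3 UMIs and *H2-Eb1* at 0.

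Endocytic and scavenger genes had a ratio above 1 for 14 of 15 counted genes, 3 of them at least 2-fold higher (20%, against 12.8% of all genes). The median log2 ratio was 0.31 (medians of the lower and upper counting bounds -0.31 and 1.24). Of the counted genes, *Stab1*, *Stab2*, *Mrc1* and *Ctsl* are also on the sinusoidal list and *Cd36* on the capillary list. *Stab2* and *Mrc1* had 0 intact UMIs and entered at the floor of 3 counts. At equal totals 0 of 9 were higher and 1 lower. *Dab2*, an endocytic adaptor, had 4 and 76 UMIs, 2.97-fold higher in callus (counting interval 1.11 to 11.2), and the protease *Lgmn* 1 and 31. The exception was *Cd36*. Immediate-early and heat shock genes, which rise when tissue is digested, were detected in full in both libraries, with 17 of 21 counted genes under a ratio of 1 and a median log2 ratio of -0.51 (medians of the lower and upper counting bounds -1.02 and 0.14). At equal totals 3 of 18 were lower and 0 higher. *Fos* was at 2814 CPM in intact and 2655 CPM in callus members and came from 16 and 47 members, and *Dusp1*, a phosphatase that stress induces, was 2.25-fold lower in callus (counting interval 1.75 to 2.86).

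Proliferation genes were unevenly present. *Mki67*, *Ccnb1* and *Birc5*, which mark dividing cells, had 0 UMIs in all 128 members and *Top2a* 0 and 8. *Pcna*, the DNA polymerase clamp, had 8 UMIs in 7 intact and 35 in 30 callus members, and *Tyms*, which makes thymidylate, had 1 UMI in 1 and 9 in 8. Of 12 listed genes 3 were counted, of which *Stmn1* was at least 2-fold higher and 0 lower, and at equal totals 1 was counted and lay within 2-fold. *Stmn1* and *Tubb5*, which nondividing cells also express, were at 54.9 and 116 and at 151 and 227 CPM. Of 10 counted hypoxia and glycolysis genes, 5 had a ratio above 1 and 5 below, and at equal totals 1 of 4 was higher and 0 lower, with *Ndrg1* higher by 2.07-fold (1.05 to 4.63), *Adm*, adrenomedullin, at 2 and 28 UMIs, and *Pfkfb3*, a regulator of glycolysis, lower by 3.76-fold (1.54 to 8.71).

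**Figure D4:**
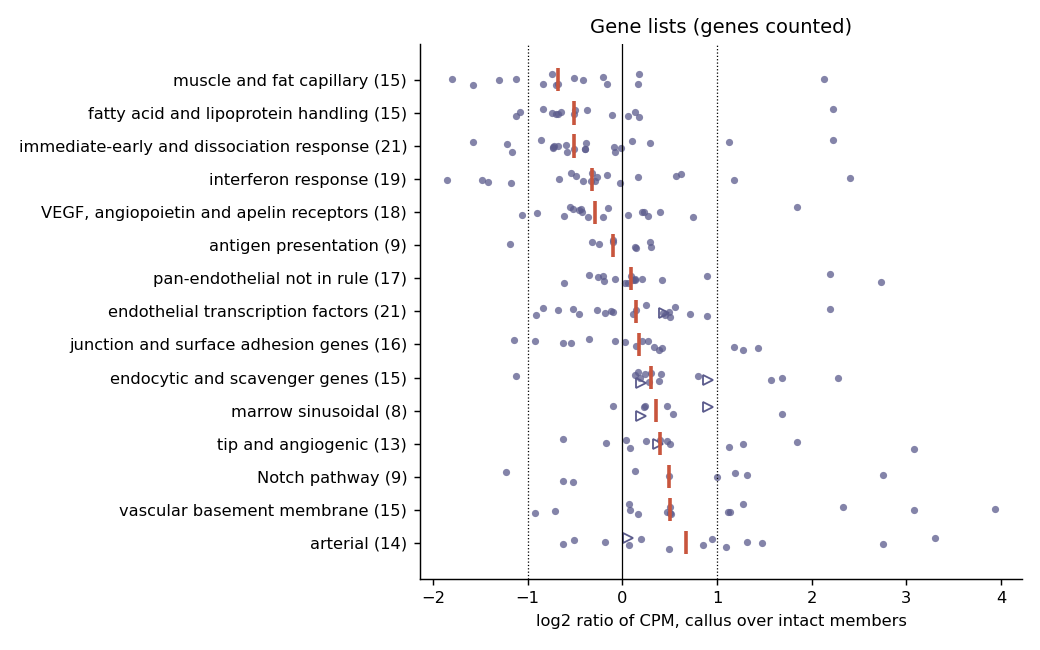
Log2 ratio of CPM, callus over intact members, for each counted gene of 15 lists (points), with list medians as red bars, dotted lines at 2-fold and open triangles at the lower bound for genes with 0 intact UMIs. The capillary median lies at -0.68, the basement membrane median at 0.51 and the arterial median at 0.67, and points of every list overlap those of the others.

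The genes furthest apart between the libraries were named by rule, among those with at least 50 UMIs that at least 25% of the members of the higher library carried. The 12 highest in callus were *Igfbp4*, *Col18a1*, *Eln*, *Nid2*, *Cdk17*, *Plvap*, *Emp1*, *Arhgef5*, *Wdr26*, *Senp6*, *Nfkbiz* and *Col15a1*. All 12 had 9 or fewer UMIs in intact members. *Igfbp4* had 1 UMI in intact and 152 in 30 callus members, a ratio of 23.8-fold (4.2 to 944), and without the 6 *Stab2* cells of 11.4. *Eln* had 1 and 80 UMIs, a ratio of 12.5-fold (2.18 to 499.8), but 36 of the callus UMIs lay in the cell with 582 fibroblast UMIs. Without that cell the ratio of *Eln* was 6.98-fold (1.19 to 282), and its 45 UMIs would fall under the limit of 50. *Emp1*, a membrane protein, was higher by 6.09-fold (2.03 to 30), and *Nfkbiz*, an inflammatory nuclear inhibitor protein, by 5.16-fold (1.37 to 43.5). The same ratios in CD45 cells and in *Pdgfra* cells were on the log2 scale 1.56 and 0.44 for *Igfbp4*, 0.49 and 0.78 for *Emp1* and 0.08 and 0.07 for *Wdr26*, against 4.57, 2.61 and 2.51 in members.

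Of the 12 genes lowest in callus, 10 are named here, *AY036118*, *Hbb-bs*, *Hbb-bt*, *Cyp26b1*, *Dhrs3*, *Lars2*, *Aqp1*, *Slc28a2*, *Hspa1a* and *Timp4*. Several were also lower in callus cells of other types. *AY036118*, an RNA from the ribosomal RNA region, was 12.1-fold (9.02 to 16.3) lower in members, or -3.60 on the log2 scale, and -3.30 in CD45 and -2.97 in *Pdgfra* cells. *Lars2*, the mitochondrial leucyl-tRNA synthetase, was at -1.93, -1.62 and -1.13. Both therefore differed between the libraries across cell types. The globin *Hbb-bs*, which endothelium does not make, was at 1880.3 CPM in intact and 195 CPM in callus members and at -0.89 and -2.05 in CD45 and *Pdgfra* cells, and after thinning it was carried by 62.0% of CD45 cells in the intact and 17.2% in the callus library, beside 21 of 26 (80.8%, 60.6 to 93.4%) and 16 of 95 (16.8%, 9.94 to 25.9%) members.

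Other genes of the lower set were set beside the same cell types. *Aqp1* was at -1.80 in members. In the other types it had 4.44 CPM in intact and 6.77 CPM in callus CD45 cells, and 1 and 39 UMIs in intact and callus *Pdgfra* cells, and *Timp4* was too rare in both to give a ratio. *Cyp26b1*, which degrades retinoic acid, had 32 UMIs in 9 intact and 42 in 17 callus members, 4.88-fold lower in callus (counting interval 2.98 to 7.91), and was at -0.37 in *Pdgfra* cells. *Dhrs3*, which reduces retinaldehyde, had 28 and 45 UMIs, 3.98-fold lower in callus (counting interval 2.39 to 6.52), and was at 0.45 and 2.26 in the other types. *Slc28a2*, a nucleoside transporter, was lower by 3.32-fold (2.01 to 5.39), and *Hspa1a*, an inducible heat shock gene, by 2.99-fold (1.94 to 4.52), with 12 and 17 cells.

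For 4 of the genes on which these results turn, the 250 bases before the transcript start are shown, from RefSeq on GRCm38.p6, to let the capillary genes *Aqp1* and *Timp4* be read beside *Col15a1* and the sinusoidal *Stab2*. Capitals mark AGGAAG or its reverse complement CTTCCT, a form of the site that ETS factors such as *Erg* and *Fli1* bind. They lie at chr6:55336049-55336298 on the plus strand for *Aqp1*, chr6:115252206-115252455 on the minus strand for *Timp4*, chr4:47207762-47208011 on the plus strand for *Col15a1* and chr10:87007943-87008192 on the minus strand for *Stab2*.
Aqp1: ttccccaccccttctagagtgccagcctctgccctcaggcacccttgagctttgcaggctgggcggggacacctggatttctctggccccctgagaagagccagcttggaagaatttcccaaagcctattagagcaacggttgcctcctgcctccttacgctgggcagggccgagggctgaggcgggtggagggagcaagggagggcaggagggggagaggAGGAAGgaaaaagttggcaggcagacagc
Timp4: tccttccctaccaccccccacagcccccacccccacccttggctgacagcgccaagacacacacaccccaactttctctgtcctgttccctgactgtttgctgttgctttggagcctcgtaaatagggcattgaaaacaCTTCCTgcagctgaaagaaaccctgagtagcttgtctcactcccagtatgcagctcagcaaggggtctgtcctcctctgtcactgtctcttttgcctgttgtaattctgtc
Col15a1: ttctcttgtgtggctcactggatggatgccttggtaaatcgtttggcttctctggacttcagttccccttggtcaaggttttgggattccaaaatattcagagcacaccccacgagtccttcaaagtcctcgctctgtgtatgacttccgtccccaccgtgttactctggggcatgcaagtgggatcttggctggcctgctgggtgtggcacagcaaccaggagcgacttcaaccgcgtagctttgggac
Stab2: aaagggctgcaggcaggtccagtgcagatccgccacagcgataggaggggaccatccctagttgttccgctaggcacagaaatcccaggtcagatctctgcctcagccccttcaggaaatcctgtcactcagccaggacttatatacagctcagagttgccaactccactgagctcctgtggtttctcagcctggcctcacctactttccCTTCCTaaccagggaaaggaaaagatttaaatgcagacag
The motif was present 1 time in each of those of *Aqp1*, *Timp4* and *Stab2* and not in that of *Col15a1*. Of all 32851 promoters of this length 29.5% held it on either strand, and of the 12 promoters listed for the pan-endothelial genes outside the rule (8 genes matched) 8 held it, 66.7%. Among the extreme genes, 3 of 9 promoters of the higher and 6 of 15 of the lower genes held it. A match is a description of the letters, and binding was not measured.

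Members were also grouped by their whole profile. Leiden clustering on 1000 variable genes gave 5 clusters, of which only the smallest was named from markers. It held 7 cells, all from the callus, with a median of 5951 UMIs, with *Stab2*, *Mrc1*, *F8*, *Angptl4*, *Abcc9*, *Ltc4s*, *Vcam1*, *Rnase4* and *Marcksl1* among its 10 leading genes, and is called sinusoidal-like. Of its cells, 6 carried both *Stab2* and *Mrc1*, and the other carried neither and had 20 UMIs of *Plvap*. The largest, of 48 cells (1 intact and 47 callus), was led by *Col15a1*, *Ppp1r16b*, *Samd9l* and *Heg1*. Another, of 26 cells (3 and 23), was led by *Gadd45g*, *Ier3*, *Atf3* and *Fos*. One of 22 cells (13 and 9) was led by *Hspa1a*, *Egr1*, *Timp4* and *Fosb*, with *Aqp1* among its 10 leading genes. Immediate-early or heat shock genes were thus among the leading genes of both, and whether digestion induced them was not tested. The last, of 25 cells (12 and 13), was led by *Hbb-bs*, *AY036118*, *Timp4* and *Aqp1* and was the shallowest, with a median of 1805 UMIs. A cluster mostly of 1 library may be that library, and since the clusters were drawn on the same genes their leading genes are no further result.

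The clusters led by *Hspa1a* and by *Hbb-bs* both had *Timp4* and *Aqp1* among their leading genes. They hold 25 of the 29 intact and 22 of the 99 callus members. Over their 47 cells they had 0 UMIs of *Plvap*, *Fbln5* and *Gja5* and 1 of *Igfbp4*. In the cluster led by *Col15a1*, *Plvap* was carried by 16 cells, *Sema3g* by 13 and *Gja5* by 6. *Gpihbp1* was carried by cells of all 5 clusters, from 863 CPM in the cluster led by *Col15a1* to 1939.6 CPM in that led by *Hbb-bs*.

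Transcripts of other cell types were low in most members. Of 18 hematopoietic genes, *Ptprc* was at 0 by the rule, and *Laptm5*, *Cd79a*, *Cd79b* and *Cd3e* had 0 UMIs in both libraries. The list held 425 and 469.7 CPM, mostly *S100a9* and *S100a8*, against 226040 and 141117 CPM in CD45 cells, which were chosen by *Ptprc*. The erythroid list held 2978 and 365 CPM, nearly all of it globin, with *Alas2* at 0 and 1 UMI, and all 4 counted genes were at least 2-fold lower in callus members. The platelet list held 0 and 23.6 CPM. Myofiber genes held 508 and 684 CPM, and *Pax7*, *Myod1* and *Myf5* had 0 UMIs. Osteoblast and marrow stroma genes held 1276 and 927 CPM, most of it *Kitl*, and their 2 counted genes were within 2-fold. The part of these transcripts in the results above was not tested.

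A few members stood apart by such content. The fibroblast list was at 124 and 1315 CPM, with *Pdgfra* at 0 by the rule and *Gsn* the most abundant, and 582 of its callus UMIs lay in 1 cell, which had 0 UMIs of *Gpihbp1* and *Fabp4* and all 6 of *Clec3b*, while the next highest cell had 7. Pericyte and smooth muscle genes were at 576 and 221 CPM, and 27 of the 37 intact UMIs of *Rgs5*, a pericyte gene, lay in 1 cell. In the callus, 1 cell held 97 of the myofiber UMIs and 1 held 31 of the erythroid UMIs. With these 4 members left out, 616 genes were at least 2-fold higher and 278 lower, close to the counts with them, and the median log2 ratios of the capillary and sinusoidal lists were -0.71 and 0.32. Scrublet called 7 of the 4502 filtered cells doublets, or 0.155%, and none of the members, which is too few to take doublets as removed.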

How the data were processed

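The authors deposited a matrix of UMI counts for each of 2 10x libraries, made with Cell Ranger (version 6.0.0 per the file headers) on mm10 (per the labels). The libraries held 1872 and 3987 barcodes and 12112002 and 36714322 UMIs. Members, gene lists and alternatives were chosen with earlier results of these data known. Cells under 500 genes or over 10% mitochondrial UMIs were dropped, members were selected as described, and their UMIs were summed per library and divided to CPM. Each condition has 1 library, so no test was run. Shares have Clopper-Pearson, levels exact Poisson and ratios exact conditional intervals at 95%, which cover counting error alone, since cells of a library are not replicates. A gene with 0 UMIs entered a ratio at a floor of 3 counts per library. Genes were counted from 20 UMIs over all members. Shares were also taken after seeded thinning of each cell to 1000 UMIs. Genes named in the text were those of the rule and of the gene lists, the 15 with the highest ratio to other cells, and the 12 furthest apart in each direction with at least 50 UMIs and 25% of cells in the higher library. Some of these genes are not reported here. Genes and cells singled out outside these rules are said to be so where they appear. The ratios were tested on simulated summed UMIs with known changes, and the thinning on the callus members. Members were clustered with scanpy 1.11.5 (10 components, 10 neighbours, resolution 0.5), and doublets were scored with its Scrublet but not removed. Python 3.11.15, numpy 2.4.6, scipy 1.17.1, pandas 2.3.3, anndata 0.12.19, igraph 0.11.9 and matplotlib 3.10.9 were used. Promoter sequences came from RefSeq. Alternatives covered the cell filter, UMI threshold, doublets, mixed cells, thinning, cell weight, scaling and count minimum.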

Additional observations from a re-analysis of the deposited data

How the results depend on the processing

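Counts of genes moved most with the settings. With at least 50 UMIs, 177 genes were at least 2-fold higher and 69 lower in callus members, and with no low count filter 915 were higher and 2000 lower. With callus UMIs thinned to the intact total, a setting chosen after seeing the data, 1425 genes were counted, 98 of them higher and 114 lower. These are 6.88% and 8%, beside 12.8% and 5.67% in the main setting. The share of calls that were higher was 69.3% as reported, 46.2% after this thinning, 31.4% with no filter and 79.9% after scaling by the median ratio. The share of members with *Gpihbp1* was 50% intact and 28.4% callus when a cell needed at least 2 UMIs after thinning, and 71.4% in callus at 2 times the depth. The capillary median log2 ratio lay between -0.71 and -0.54 over 15 alternatives, of which the threshold of 2 UMIs and the removal at over 2% of haematopoietic, erythroid and myofibre UMIs gave the same cells and values as the main setting, the arterial between 0.31 and 0.81 and the basement membrane between 0.30 and 0.65. The sinusoidal median lay between -0.03 and 0.51, and was below 0 in 1 of 15, the one without the *Stab2* cells, which was also chosen after seeing the data, as were the removal of members with 20 UMIs of another cell type and the mean over all draws. No paired analysis was possible because each condition has 1 library. The intact members held 72859 UMIs, so 1 UMI there is 13.7 CPM, and differences in rarer genes were not detectable.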
